A study of Capra hircus with 10 samples.

Results

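The miR-17-92 and miR-106b-25 clusters are related groups of miRNA hairpins, the first with 6 and the second with 3 hairpin genes, each transcribed as 1 long RNA that is then cut into separate miRNA. They were followed in the lactating mammary gland of Alpine goats. Every row of the count tables named miR-17, miR-18a, miR-19a, miR-19b, miR-20a, miR-92a, miR-106b, miR-93 or miR-25, with either arm of the hairpin, was taken. This gave 17 rows of 1804, 11 of the miR-17-92 cluster and 6 of the miR-106b-25 cluster, out of 18 possible arms. The 3p arm of miR-92a was not analysed here under that name. Small RNA was sequenced from the mammary gland of 10 goats near peak lactation (48 ± 2 days post-partum), 1 library per goat, all fed orchard grass hay with concentrate at 35:65 for the first 2 weeks. The 4 Control goats (libraries L01, L04, L06, L10) went on eating this diet freely until slaughter. The 6 food-deprived (FD) goats (libraries L02, L03 and L05, and L07 to L09) had water but no food for the last 48 h. Each library was made from a piece of mammary tissue, so fewer cells of a type and less of a miRNA per cell cannot be told apart in these libraries.

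A miRNA hairpin gives a 5p and a 3p strand, of which 1 usually stays bound to an Argonaute protein and the other is mostly degraded. Bases 2 to 8 of the bound strand, the seed, pair with target mRNA. The miR-17-92 polycistron is induced by MYC and is best known for promoting cell proliferation and survival, with BCL2L11 (a trigger of apoptosis) among the established targets of its members. The miR-106b-25 hairpins lie in an intron of MCM7, a gene of DNA replication, and share seeds with those of miR-17-92. In the mammary gland both have been studied mostly in breast cancer.

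In the RefSeq gene table of the goat (assembly ARS1.2, a newer one than that of the count tables, so its coordinates are not used), all 9 genes were found. MIR17, MIR18A, MIR19A, MIR20A, MIR19B and MIR92A followed each other on 1 chromosome with no other miRNA gene between them. MIR106B, MIR93 and MIR25 followed each other on another, inside MCM7. The abundant arms are printed as given in the deposited tables, in DNA letters, 5′ to 3′, with the seed in capitals. They are shown because the members fall into 4 seed groups, of which that of miR-17 holds members of both clusters.
The seed of miR-17 was shared by 4 members, 2 from each cluster.
miR-17-5p: cAAAGTGCttacagtgcaggtagt
miR-20a-5p: tAAAGTGCttatagtgcaggtag
miR-106b-5p: tAAAGTGCtgacagtgcagat
miR-93-5p: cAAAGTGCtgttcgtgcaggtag
miR-18a differed from them within the seed itself.
miR-18a-5p: tAAGGTGCatctagtgcagatag
The miR-19 pair had a seed of its own.
miR-19a-3p: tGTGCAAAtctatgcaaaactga
miR-19b-3p: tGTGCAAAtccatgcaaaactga
The last group held miR-25.
miR-25-3p: cATTGCACttgtctcggtctga

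Several of these sequences nearly coincide with each other or with miRNA of a paralogous cluster. Those are shown here because reads of such pairs may be hard to tell apart, which was not tested.
miR-106a-5p: aAAAGTGCttacagtgcaggtagc
miR-20b-5p: cAAAGTGCtcacagtgcaggtag
miR-18b-5p: tAAGGTGCatctagtgcag
miR-92b-3p: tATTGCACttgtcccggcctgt
Counted from 1 at the 5′ end, miR-19b-3p differs from miR-19a-3p by T11C alone. miR-20b-5p differs from miR-17-5p by T10C within the 23 nt they share, and miR-17-5p differs from miR-106a-5p at 2 positions. The 19 nt of miR-18b-5p are the first 19 nt of miR-18a-5p. The row named miR-92b-3p differs from miR-25-3p at 4 positions (C1T, T14C, T18C and A22T). Its sequence is the one generally known in mammals as miR-92a-3p, and MIR92B lies between MIR363 and MIR20B in the gene table, so its counts cannot be assigned to one cluster. A single one of the 1070 predicted precursors carried a seed of the members, the one named as miR-32, at chr8:96669021-96669082 on the minus strand of CHIR_1.0, with a miRDeep2 score of 5.3 and 6302 reads over all libraries.

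The libraries held from 4495512 to 9842009 counts each. The clusters together took from 31318 to 95419 of them. Counts were divided by median-of-ratios size factors, and these normalized counts are used below for levels and for comparisons between libraries. Of the 17 rows, 12 passed the filter on low counts (highest normalized count above 28), and the other 5 (miR-19a-5p, miR-19b-5p, miR-92a-5p, miR-93-3p and miR-25-5p) are given by value only. The epithelial marker miR-200b-3p stood between 44316 and 57932 normalized counts in the Control and between 32339 and 51245 in the FD libraries. The more abundant epithelial marker miR-141-3p stood between 126005 and 129748 in the Control and between 92903 and 150852 in the FD libraries. Of the 10 tested epithelial marker rows, 8 had log2 fold changes of FD over Control below 0, and the 2 rows of miR-205 were above 0. Over all 490 miRNA that passed the filter, 245 (50%) were above 0.

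Among the 17 rows, a single one held most of the counts of each cluster. miR-19b-3p had the highest mean level of the 17 rows, 22353 ± 6156 normalized counts (SD, n = 10), rank 34 of the 1804 rows. It made up 81.2% ± 1.49 (SD) of the counts of the miR-17-92 rows. Whether some counts of miR-19b-3p come from a copy of its hairpin outside the cluster was not tested. miR-25-3p followed with 20044 ± 2602 (rank 36) and made up 82.0% ± 1.69 of the miR-106b-25 rows. The row named miR-92b-3p, counted in neither cluster, was higher, at 45969 ± 3414 (SD, n = 10). Were all of it counted in the miR-17-92 cluster, miR-19b-3p would make up 30.1% ± 4.95 (SD) and that row 63.0% ± 5.47. Each read covers a whole mature miRNA, so these levels need no correction for length, but the ligation of adapters differs between sequences and its part in the order was not tested.

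Below these came miR-93-5p (3433 normalized counts on average), miR-19a-3p (2617), miR-17-5p (1016), miR-20a-5p (866) and miR-106b-5p (656). miR-106b-3p (307), miR-17-3p (258) and miR-18a-5p (227) had similar levels, and miR-20a-3p (59.9) and miR-18a-3p (30.9) were the lowest of those tested. The hairpins of a cluster thus differed widely although they share a transcript: within the miR-17-92 rows, miR-17-5p made up 3.81%, miR-20a-5p 3.23% and miR-18a-5p 0.857% of the counts. In this order of 12 levels, 6 of the 11 neighbouring pairs kept the same order in all 10 libraries. The ranges of 4 of them did not overlap (miR-25-3p over miR-93-5p, miR-19a-3p over miR-17-5p, miR-106b-5p over miR-106b-3p and miR-18a-5p over miR-20a-3p). The leading pair did not hold its order, with miR-19b-3p above miR-25-3p in 6 of 10 libraries and a mean log2 ratio of 0.13 ± 0.42 (SD).

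The 5 rows below the filter were the minor arms of their hairpins or, for miR-92a-5p, the arm analysed. miR-92a-5p ranged from 8.37 to 27.6 normalized counts over the libraries. miR-93-3p ranged from 15.4 to 24.9 in the Control and from 8.63 to 23.5 in the FD libraries. miR-25-5p ranged from 8.64 to 15.7 in the Control and from 14.4 to 19.2 in the FD libraries, so the diets overlapped for both. The 5p arms of the miR-19 hairpins, miR-19b-5p (4 to 10 raw counts per library) and miR-19a-5p (1 to 6), were at the edge of detection.

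**Figure D1:**
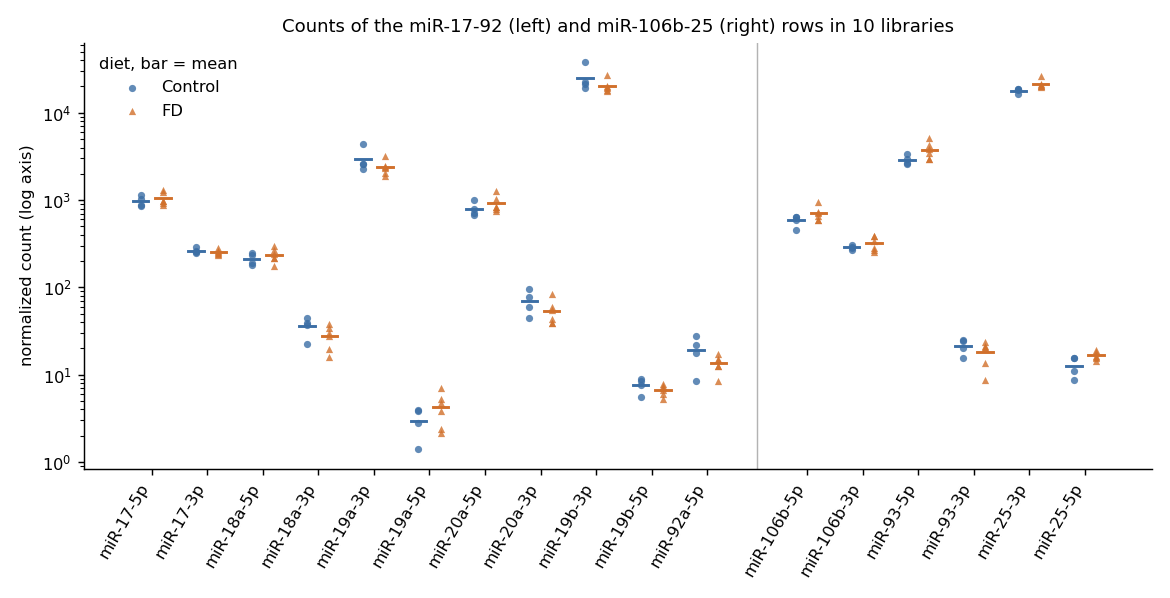
Normalized counts (log axis) of the 17 rows, with 1 point per library, Control as blue circles (n = 4) and FD as orange triangles (n = 6), and bars for the group means. The levels span from about 1.40 for miR-19a-5p to 38104 for miR-19b-3p, and miR-25-3p is the one abundant row whose diets do not overlap.

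The deposited rows allow the seed groups to be summed over members and relatives. The 6 rows with the seed of miR-17 summed to between 4719 and 5838 normalized counts in Control and between 5322 and 8387 in FD libraries, and the 4 members made up at least 98.4% of that sum in every library. The miR-19 pair summed to between 21384 and 42496 in Control and between 19796 and 30294 in FD libraries. The seed of miR-25 was the most abundant, from 61395 to 67226 in Control and from 62839 to 75556 in FD libraries. There miR-25-3p made up 25.7% to 36.1% of the sum and the row named miR-92b-3p most of the rest. The ranges of the diets overlapped in each seed group.

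Levels of near-identical rows were far apart. miR-17-5p had 19.5 to 32.2 times the counts of miR-106a-5p, miR-20a-5p 19.3 to 49.8 times those of miR-20b-5p and miR-18a-5p 9.37 to 38.5 times those of miR-18b-5p. As counted, the relatives on the paralogous cluster were minor in these seed groups, apart from the row named miR-92b-3p, which had 1.74 to 2.86 times the counts of miR-25-3p. How reads that match both rows of a pair were shared out was not tested, so the values of each pair, above all of its minor row, are uncertain.

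The first question was whether food deprivation changed these miRNA. None of the 12 tested rows passed the threshold (edgeR quasi-likelihood test, Benjamini-Hochberg adjustment over the 490 miRNA tested, threshold 0.1), and neither did any of the others (0 of 490, 0%). At an unadjusted p under 0.05 edgeR called 77 of the 490 miRNA (15.7%) and 0 of the 12 members. Of the 20 other fits, 10 had 1 or 2 members there. DESeq2 had miR-25-3p and miR-93-5p, beside 85 of the 490 miRNA (17.3%), and without L03 edgeR had miR-19b-3p and miR-20a-3p, beside 65 (13.3%). After adjustment DESeq2 called 27 of the 490 at the same adjusted threshold (5.51%), none of them a member. The log2 fold changes of FD over Control ran from -0.40 for miR-20a-3p to 0.37 for miR-93-5p, with a median of 0.11 over the 12 members, while over all 490 miRNA 245 (50%) were above 0 and the median was -0.0004.

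The 4 tested rows of the miR-106b-25 cluster were all above 0, with a median log2 fold change of 0.25, while 3 of the 8 of the miR-17-92 cluster were above 0 and their median was -0.19. Without L10 the median of the miR-17-92 rows was -0.08. That of the miR-106b-25 rows was 0.16 without L08 and 0.17 without the Control library L01. With the stricter filter, which leaves out miR-18a-3p and miR-20a-3p, the miR-17-92 median was -0.01. Among the more abundant arms alone, 3 of the 5 tested miR-17-92 rows were above 0, with a median of 0.09. The 3 such rows of the miR-106b-25 cluster had a median of 0.26. miR-25-3p, which shares its seed with miR-92, had 16312, 18599, 18628 and 18136 normalized counts in the Control libraries and 19895, 20998, 20475, 21133, 26124 and 20136 in the FD libraries. All 6 FD libraries thus lay above all 4 Control libraries. Ranges of the diets that did not overlap, in either direction, were seen for 11 of the 490 miRNA tested (2.24%) and no other tested member. The means of miR-25-3p were 17919 ± 1094 (SD, n = 4) for Control against 21460.2 ± 2334 (SD, n = 6) for FD libraries. Its log2 fold change was 0.25 ± 0.113 (SE), with an adjusted p of 0.313 by edgeR and 0.181 by DESeq2, and neither passed. Over 20 alternatives and left-out libraries the change stayed between 0.17 and 0.29, lowest without L08.

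miR-93-5p, with the seed of miR-17, had 2586, 3409, 2643 and 2993 normalized counts in the Control libraries. The FD libraries ran from 2974 to 5103 (median 3672), with L08 highest. The diets overlapped, although 4 of the 6 FD libraries were above every Control library. Its log2 fold change was 0.37 ± 0.175 (SE), the largest increase among the members (edgeR adjusted p = 0.323), and 0.25 without L08. miR-106b-5p, also of that seed, had 455, 647, 639 and 594 in the Control and 591 to 945 (median 683) in the FD libraries. Its log2 fold change was 0.26 ± 0.182 (edgeR adjusted p = 0.457), 0.14 without L08 and 0.15 without L01. For miR-106b-3p, the other arm of the hairpin, it was 0.14 ± 0.170 (edgeR adjusted p = 0.649). L08 was the library with the most counts and had the highest value of all 4 of these rows.

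The miR-19 pair had lower FD means. miR-19b-3p had 19124, 21529, 22344 and 38104 normalized counts in L01, L04, L06 and L10 of the Control goats, and 17734 to 27116 (median 19568) in the FD libraries. L10 stood far above the other Control libraries, and the diets overlapped. The log2 fold change was -0.33 ± 0.187 (SE; edgeR adjusted p = 0.421), but -0.08 without L10 (adjusted p = 0.802). miR-19a-3p had 2260.0, 2569, 2591 and 4392 in the Control libraries and 1883 to 3179 (median 2388) in the FD libraries. The same library was highest, and its log2 fold change of -0.32 ± 0.198 (edgeR adjusted p = 0.438) became -0.08 without L10.

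The members of the miR-17-92 cluster with the seeds of miR-17 and miR-18 had log2 fold changes between 0.09 and 0.19. miR-17-5p had 846, 1016, 887 and 1134 normalized counts in the Control and 869.9 to 1303 (median 969) in the FD libraries, a log2 fold change of 0.09 ± 0.160 (SE; edgeR adjusted p = 0.781). miR-20a-5p had 791, 705, 667 and 1013 and 752 to 1254 (median 834), with a log2 fold change of 0.19 ± 0.183 (edgeR adjusted p = 0.592). L03 and L08 were the 2 highest FD libraries for both rows. miR-18a-5p, of which the estrogen receptor mRNA is an established target, ranged from 182 to 249 in the Control and from 174 to 297 in the FD libraries. Its log2 fold change was 0.12 ± 0.181 (edgeR adjusted p = 0.727). With 1 library left out the change of miR-17-5p ran from 0.02 to 0.16, that of miR-20a-5p from 0.09 to 0.31 and that of miR-18a-5p from 0.03 to 0.20.

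Among the minor arms, miR-17-3p varied less than any other member, from 235 to 290.4 normalized counts over the 10 libraries (coefficient of variation 6.79%). Its log2 fold change was -0.06 ± 0.132 (SE). miR-18a-3p and miR-20a-3p had lower FD means, with log2 fold changes of -0.39 ± 0.292 and -0.40 ± 0.260, at raw counts of 18 to 57 and 32 to 101 per library. These became -0.26 for miR-18a-3p without L06 and -0.21 for miR-20a-3p without L10. The adjusted p of these 3 rows was between 0.457 and 0.824 by edgeR. Among the 5 rows not tested, miR-92a-5p had a mean of 18.9 ± 8.13 (SD, n = 4) for Control against 13.4 ± 3.04 (SD, n = 6) for FD libraries, with overlapping ranges.

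None of the 5 tested relatives passed the threshold either. The row named miR-92b-3p, which cannot be assigned to one cluster, had 46679, 47027, 47751 and 42498 normalized counts in the Control and 41617 to 53852 (median 45032) in the FD libraries, a log2 fold change of -0.02 ± 0.0954 (SE; edgeR adjusted p = 0.926). miR-32-5p and miR-363-3p, with the same seed, had log2 fold changes of -0.03 ± 0.166 and -0.20 ± 0.238. With the seed of miR-17, miR-106a-5p had -0.08 ± 0.258 and miR-20b-5p 0.17 ± 0.313. The smallest adjusted p of the 5 was 0.653, and the signs of 4 of these relatives turned under some alternative.

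**Figure D2:**
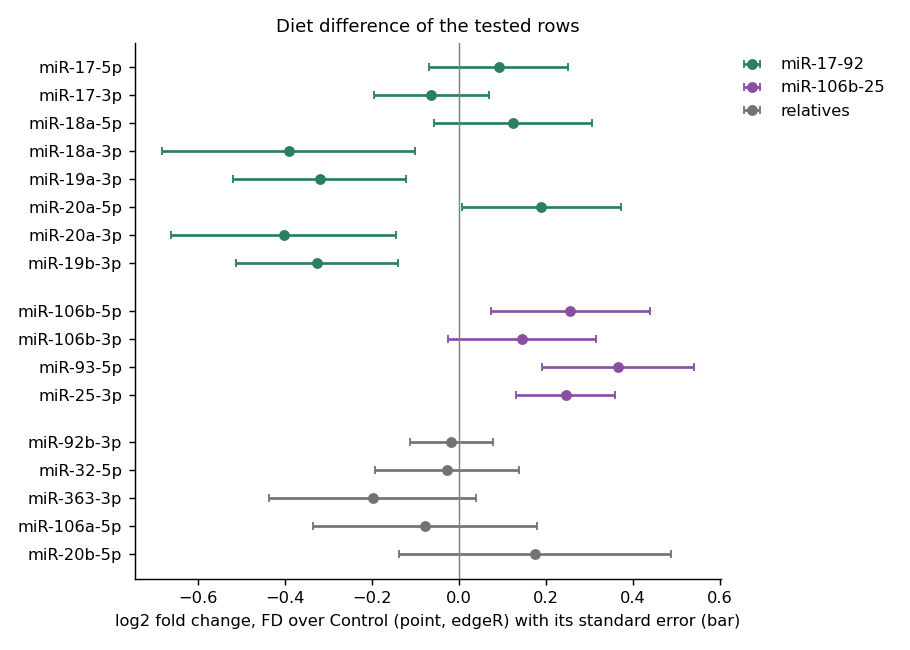
Log2 fold change of FD over Control (horizontal axis, points) with its standard error (bars) from edgeR for the 12 tested members and 5 tested relatives, one per line. The 4 miR-106b-25 rows lie between 0.14 and 0.37, the miR-17-92 rows between -0.40 and 0.19, and none passed the threshold.

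As a share of all counts of a library, the miR-106b-25 rows made up 0.306% to 0.356% in the Control and 0.359% to 0.554% in the FD libraries (0.331% ± 0.0269 and 0.409% ± 0.0724, SD). These ranges did not overlap, with L09 as the lowest FD and L04 as the highest Control library. Without the 10 most abundant miRNA in the total, the ranges were 1.06% to 1.26% and 1.19% to 1.79% and overlapped. miR-25-3p, whose diets did not overlap, made up 82.0% ± 1.69 (SD) of the miR-106b-25 rows, so these shares largely reflect its counts. The miR-17-92 rows made up 0.372% to 0.629% in the Control and 0.331% to 0.515% in the FD libraries. L10 held the highest and L07 the lowest of these shares. The 95% Wilson interval of each share reached at most 0.00604 percentage points to either side, which covers counting error only. For the miR-106b-25 rows, the intervals of L09 (0.355% to 0.364%) and L04 (0.352% to 0.361%) overlapped, so the gap between the diets was within counting error. The shares were not tested, because they sum over members chosen with results known.

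**Figure D3:**
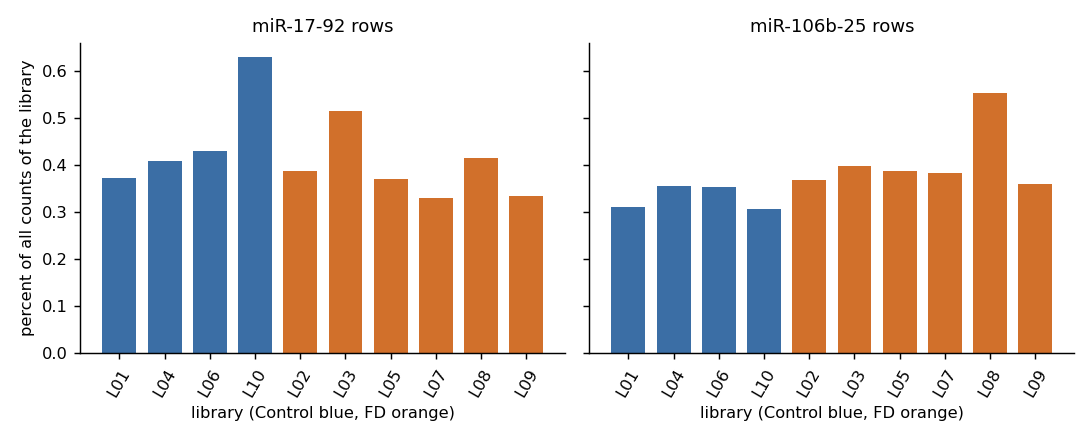
Percent of all counts of each library (bars from 0) taken by the miR-17-92 rows (left) and the miR-106b-25 rows (right), Control libraries in blue and FD libraries in orange. L10 has the highest miR-17-92 share (0.629%) and L08 the highest miR-106b-25 share (0.554%).

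The balance between the leading strands of both clusters differed by library. miR-25-3p had 0.853, 0.864, 0.834 and 0.476 times the counts of miR-19b-3p in the Control libraries. In the FD libraries the ratio was 0.980, 0.774, 1.03, 1.19, 1.36 and 1.11. It was below 1 in every Control library and above 1 in 4 of 6 FD libraries, with L02 just below 1 and L03 within the Control range, and it was not tested.

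The next question was whether food deprivation changed which arm of a hairpin was kept, measured as 3p over 5p counts within a library, a ratio that scaling between libraries does not touch. The 5p arm was the more abundant in mir-17, mir-18a, mir-20a, mir-106b and mir-93, and the 3p arm in mir-19a, mir-19b and mir-25. The preference ranged from 1.58 to 2.64 times more 5p in mir-106b to 101 to 424 times more in mir-93. For mir-19b the 3p arm had 2180.4 to 4669 times the counts of the 5p arm, and for mir-25 1008 to 1988 times. No hairpin changed its dominant arm in any library.

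The hairpin of miR-20a, whose minor arm follows here with bases 2 to 8 in capitals, had the largest change relative to its error of the member hairpins tested.
miR-20a-3p: aCTGCATTatgagcacttaaa
Its 3p over 5p ratio was 0.0987, 0.0855, 0.0682 and 0.0962 in L01, L04, L06 and L10 of the Control goats. In the FD libraries it was 0.0482, 0.0669, 0.0562, 0.0711, 0.0532 and 0.0529. The highest FD library (L07) was above the lowest Control library (L06), and the other 5 FD libraries were below all Control libraries. The mean log2 ratio was -3.54 ± 0.24 (SD) with food and -4.12 ± 0.22 (SD) without, a difference of -0.58 ± 0.146 (SE). Adjusted over the 114 precursors with both arms tested, the limma p was 0.0996, just under the threshold of 0.1, which 3 of the 114 passed (2.63%). At an unadjusted limma p under 0.05 it was 8 of the 114 (7.02%), mir-20a alone among the 4 member hairpins tested.

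This call was lost when 1 precursor with equal counts of both rows was left out (adjusted p = 0.127), when precursors were filtered on mean counts of both arms (0.131) and without any of 7 of the 10 libraries (L01, L02, L04, L05, L08, L09 or L10). The exact permutation test gave p = 0.0143 (adjusted 0.543), but its smallest p is 0.0048, so a call at that p needs at least 6 of the 114 precursors there, and 1 was. The difference itself stayed between -0.70 and -0.52 in all of these. The ratio rests on 32 to 101 counts of miR-20a-3p per library.

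The other tested hairpins had the same sign and did not pass. The difference was -0.53 ± 0.271 (SE) for mir-18a (limma adjusted p = 0.606), -0.15 ± 0.112 for mir-17 (0.643) and -0.13 ± 0.139 for mir-106b (0.758). With the filter on mean counts, mir-93 and mir-25 also entered, with differences of -0.65 ± 0.322 and -0.14 ± 0.188 (limma adjusted p = 0.581 and 0.767). The 4 hairpins tested in the main comparison had a lower ratio in FD libraries, with a median log2 difference of -0.34. Over all 114 precursors 57 (50%) had a lower ratio and the median was -0.0038. Hairpins of 1 polycistron are not independent, so this count is a description.

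**Figure D4:**
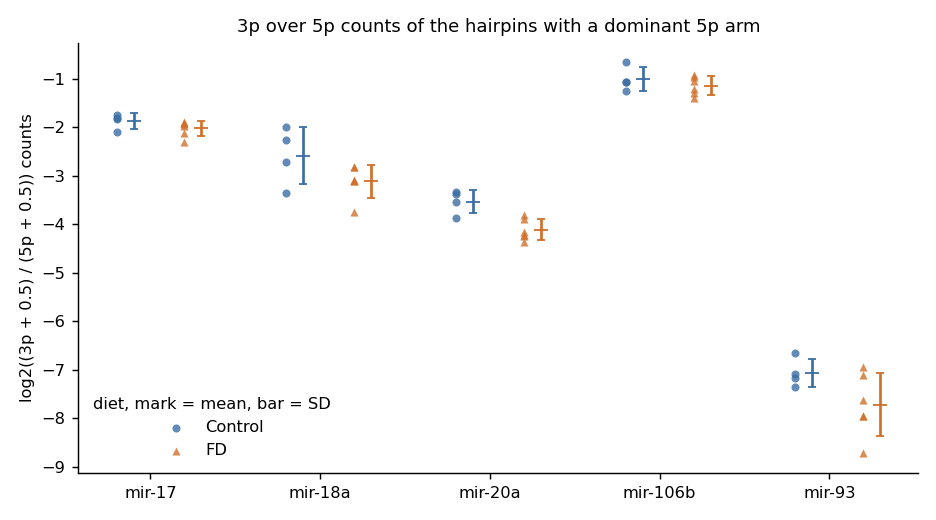
Log2 of the 3p over 5p counts (vertical axis, 0.5 added to both) in each library for the 5 hairpins whose 5p arm was the more abundant, Control as blue circles (n = 4) and FD as orange triangles (n = 6), with mean and SD beside them. For mir-20a, 5 of the 6 FD points lie below all 4 Control points, and for the other hairpins the diets overlap more.

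Members of 1 polycistron come from the same transcript, so the tested rows were correlated with each other over the 10 libraries (Pearson's r and Spearman's rho of log2(normalized count + 1), two-sided permutation tests with 100000 resamples, adjusted over the 5802 pairs of a member with any tested miRNA). All points share the libraries and their scaling. Of the 66 pairs between members, 2 passed the threshold of 0.1 and both were positive, against 63 of the 5802 pairs of all kinds (1.09%). The pairs within a cluster, the arms of a hairpin not counted, had a median r of 0.49 (30 pairs, 2 below 0). The 32 pairs across the clusters had a median of 0.11 (13 below 0). In deviations from the diet means these medians were closer, 0.55 within a cluster and 0.29 across the clusters. Of all 5802 pairs 2835 (48.9%) were above 0, and the pairs of a member with miRNA outside the clusters had a median of -0.02.

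The closest pair was miR-19a-3p and miR-19b-3p, with r = 0.98 (permutation p = 2e-05, adjusted p = 0.0129) and rho = 0.98 (permutation p = 5e-05, adjusted p = 0.0363). Of 489 possible partners each had the other as its nearest. Without the 2 libraries farthest from the median r was 0.89, and in deviations from the diet means it was 0.98. miR-19b-3p had 8.12 to 9.63 times the counts of miR-19a-3p in all 10 libraries, while the level of miR-19b-3p itself ranged from 17734 to 38104. The rows differ at 1 base, and the part of reads shared between them was not tested.

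The other pair past the threshold was miR-93-5p and miR-106b-5p, neighbours in MCM7 with the same seed, with r = 0.90 (permutation p = 1e-04, adjusted p = 0.0387) and rho = 0.92 (permutation p = 0.0005, adjusted p = 0.104). Without the 2 farthest libraries r was 0.75, and in deviations from the diet means 0.86 (permutation test, adjusted p = 0.133), so the call was lost there. It was also lost without L01 (r = 0.91), L02 (0.90), L05 (0.90) or L08 (0.80). Of 489 possible partners, miR-106b-5p ranked 10 for miR-93-5p, and miR-93-5p ranked 6 for miR-106b-5p. For miR-93-5p, miR-25-3p ranked 28, while for miR-25-3p, miR-106b-5p ranked 1. miR-25 is the other hairpin of the cluster. miR-25-3p and miR-106b-5p had r = 0.91 (permutation p = 0.00189, adjusted p = 0.112) and rho = 0.75 (permutation p = 0.0177, adjusted p = 0.331), and 0.92 in deviations from the diet means (permutation test, adjusted p = 0.0464), which passed. Without the 2 farthest libraries r fell to 0.50, so this relation rests partly on those libraries. miR-25-3p and miR-93-5p had r = 0.85 (permutation p = 0.00141, adjusted p = 0.112), and 0.60 without the 2 farthest libraries.

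The ratios within the miR-106b-25 cluster were narrow. miR-25-3p had 4.76 to 7.05 times the counts of miR-93-5p and 27.6 to 35.8 times those of miR-106b-5p, and miR-93-5p had 4.13 to 5.87 times those of miR-106b-5p. Within the miR-17-92 cluster, miR-17-5p had 1.04 to 1.44 times the counts of miR-20a-5p, and these had r = 0.83 (permutation p = 0.00384, adjusted p = 0.137). The miR-19 pair followed them less. miR-19b-3p had 15.6 to 33.6 times the counts of miR-17-5p, with 33.6 in L10 and 25.2 in L06, the next highest library, and r was 0.50 (permutation p = 0.136, adjusted p = 0.499). L10 was thus high in miR-19 beyond miR-17, which in that library was at 1134 normalized counts against 1303 in L03.

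**Figure D5:**
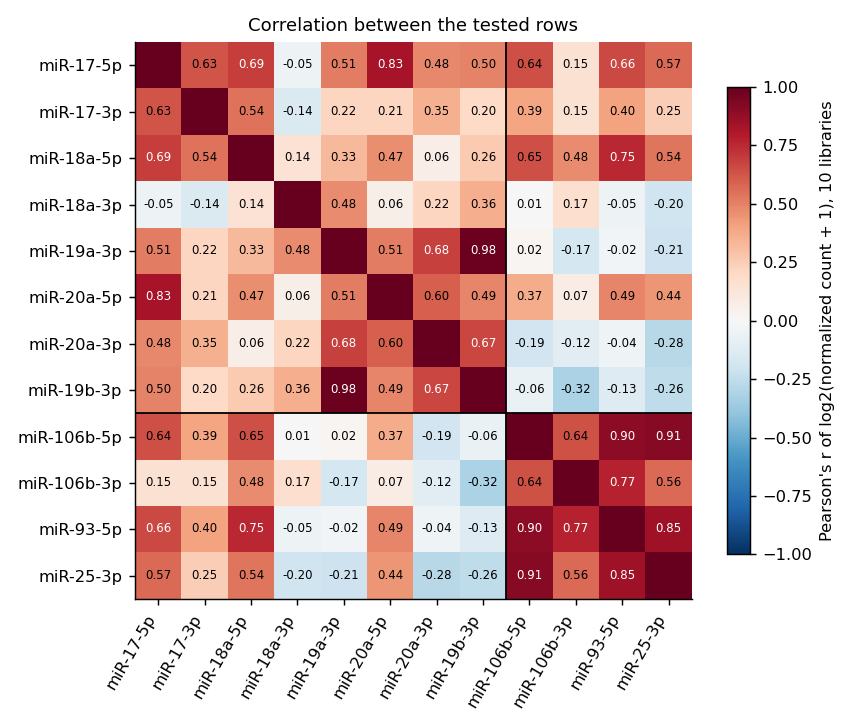
Pearson's r of log2(normalized count + 1) over the 10 libraries between the 12 tested rows, from blue (-1) to red (1), with lines between the clusters. The lower right block of the miR-106b-25 rows runs from 0.56 to 0.91, and miR-19a-3p with miR-19b-3p is the closest pair (0.98).

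For none of the 4 hairpins with both arms tested was the 3p arm the nearest partner of the 5p arm. r was 0.64 for the arms of miR-106b, 0.63 for miR-17, 0.60 for miR-20a and 0.14 for miR-18a, and none passed. In deviations from the diet means the arms of miR-20a had r = 0.90 (permutation p = 0.00042, adjusted p = 0.0914), which passed. miR-18a-3p rests on 18 to 57 counts per library, the lowest of the 12 tested rows.

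Each cluster was also compared with all other tested miRNA through the mean standardized log2 profile of its tested rows, as a description over 10 libraries. The 3 nearest to the miR-106b-25 profile were miR-222-3p (r = 0.97), miR-150-5p (0.96) and miR-221-3p (0.96), and in deviations from the diet means r was 0.96, 0.95 and 0.93. The cluster's own rows, which make up the profile, had r from 0.82 (miR-106b-3p) to 0.97 (miR-93-5p) with it. miR-221 and miR-222 are a cluster of their own that regulates the cell cycle inhibitor CDKN1B and the receptor KIT, and miR-150 is abundant in lymphocytes. The 3 nearest to the miR-17-92 profile were miR-145-5p (0.87), a miRNA of smooth muscle, miR-362-5p (0.79) and miR-491-5p (0.78). Its own rows had r from 0.37 (miR-18a-3p) to 0.85 (miR-19a-3p), so miR-145-5p was nearer than any of them. Of the relatives on the paralogous cluster, miR-106a-5p was nearest to the miR-17-92 profile (0.73).

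miR-150-5p had 2481, 4769, 3133 and 4053 normalized counts in the Control and 3109, 5753, 9510.4, 6525, 11787 and 3184 in the FD libraries. L08 was highest and L05 next, as for miR-93-5p. All 3 tested rows of the myeloid and lymphoid markers (miR-150 and both arms of miR-223) had log2 fold changes above 0. They had an unadjusted edgeR p under 0.05, as did 77 of the 490 miRNA tested (15.7%). Over all 490, 245 (50%) were above 0. None of the 3 passed after adjustment (smallest edgeR adjusted p = 0.195), but edgeR called 0 of the 490. In the paper, DESeq2 lists both arms of miR-223 as increased by food deprivation, but not miR-150. The summed level of the 3 rows ranged from 2715 to 5192 in Control and from 3587 to 12280.4 in FD libraries. Their part in the levels of the miR-106b-25 rows was not tested.

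The other marker lists are given by their counts and summed levels. The endothelial miR-126 (2 of 2 rows above 0) summed from 117544 to 144955 in Control and from 136542 to 197735 in FD libraries, and the erythroid markers (3 of 3 tested rows above 0) from 3749.7 to 6061 in Control and from 5961 to 8756 in FD libraries. Of the 10 tested epithelial markers 8 were below 0, with sums from 221821 to 245827 in Control and from 173949.5 to 243961 in FD libraries. Of the 8 stromal and smooth muscle markers 6 were above 0, with sums from 690407 to 928572 in Control and from 579433 to 1136233 in FD libraries. No marker row was called by edgeR after adjustment, and neither was any other of the 490 miRNA tested. The paper, with DESeq2, lists miR-126-3p and miR-451-5p among its increased miRNA. At an unadjusted edgeR p under 0.05 were 2 endothelial, 1 erythroid, 2 epithelial and 0 stromal and smooth muscle rows of those tested. Of all 490 miRNA tested, 77 (15.7%) were there, and 245 (50%) were above 0. Arms of 1 hairpin are not independent, so these counts are a description. The 2 marker rows not tested, miR-429-5p and miR-451-3p, were at 0 in all Control libraries. Their part in the cluster values was not tested.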

How the data were processed

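Small RNA of 17 to 28 nt was measured in 1 library per goat, so the 4 Control and 6 FD libraries are biological replicates. The authors made the counts by calling reads with CASAVA 1.8.2 (submitters' processing notes), trimming with Cutadapt, mapping to the goat genome CHIR_1.0 with miRDeep2 and counting reads per mature miRNA on precursors of miRBase v21 and predicted ones. The score of each predicted precursor was deposited as miRDeep2 gave it on the reads of all libraries. Deposited columns of normalized values were not used, and neither were sequences from elsewhere. No molecular identifiers are described, so copies made in amplification could not be removed.

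Rows were chosen by name, and members and lists were chosen with earlier results of these data known. The rule for named miRNA was every member row, relatives by seed or paralogous cluster, the 3 miRNA most like each cluster and marker miRNA. Normalized counts are counts over DESeq2 size factors from all 1804 rows. For the diets, the quasi-likelihood test of edgeR with TMM scaling was run on 490 miRNA, those with a highest normalized count above 28. Arm ratios of 114 precursors were compared with limma, and rows were correlated with permutation tests. Tests were two-sided, p-values were adjusted after Benjamini and Hochberg, and 0.1 was the threshold. The SE of a fold change on the log2 scale was derived from its F statistic. Alternatives were DESeq2, limma-voom, robust dispersions, other scalings and filters, another pseudocount, and each library left out. The alternative without a precursor of equal counts was chosen after seeing the data. Scripts were tested on simulated data. Versions were R 4.3.3, edgeR 4.0.16, DESeq2 1.42.0, limma 3.58.1, Python 3.11.15, numpy 2.4.6, pandas 2.3.3, scipy 1.17.1 and matplotlib 3.10.9.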

Additional observations from a re-analysis of the deposited data

Results flagged for a closer look

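In 5 of the 36 groups of values examined, 1 library stood apart from the rest of its diet by Dixon's criterion, which chance alone meets in about 1 in 20 groups. Among the Control libraries, L10 had 38104 normalized counts of miR-19b-3p, against 19124 to 22344 in the other 3, and 4392 of miR-19a-3p, against 2260.0 to 2591. The 2 rows differ at 1 base, and the part of reads shared between them was not tested. Among the FD libraries, L03 had 27116 normalized counts of miR-19b-3p, against 17734 to 20307 in the other 5. L08 had 26124 normalized counts of miR-25-3p, against 19895 to 21133, and 0.554% of its counts on the miR-106b-25 rows, against 0.359% to 0.397%. L08 also had the most counts of all libraries.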

How the results depend on the processing

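The log2 fold changes of the 12 members kept their sign, and their adjusted p stayed above the threshold, in all 238 values from the alternatives and left-out libraries, and no alternative called a member. Calls near the threshold moved. The count of member hairpins with a changed arm ratio was 1, but 0 with the filter on mean counts, 0 without the precursor of equal counts, and 0 to 1 with libraries left out. It was also 0 with the exact permutation test, whose smallest p of 0.0048 leaves little room for a call over 114 precursors. The count of members with an unadjusted p under 0.05 was 0, and 0 to 2 in the other fits. The count of correlated pairs was 2, and 1 to 3 with libraries left out. Among the relatives, miR-92b-3p turned to 0.015 with library totals and 0.0061 with no filter, and miR-32-5p to 0.015 with library totals, on the log2 scale. With libraries left out, the log2 fold changes ran from -0.23 to 0.15 for miR-106a-5p, -0.014 to 0.33 for miR-20b-5p, -0.070 to 0.015 for miR-92b-3p and -0.16 to 0.059 for miR-32-5p. The cause of these turns was not tested. The mean share of the miR-17-92 rows was 1.68% in Control and 1.34% in FD libraries without the 10 most abundant miRNA in the total, and 0.0800% and 0.0764% without miR-19b and miR-92a. That of the miR-106b-25 rows was 1.19% and 1.39% without the 10 most abundant miRNA. No paired analysis was possible because the labels give no replicate numbers shared between the diets. Precision is limited by 4 against 6 goats, and for miR-18a-3p and miR-20a-3p also by raw counts of at most 57 and 101 per library.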
